A study of Mus musculus with 8 samples.

Results

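The genes described here are the segment and constant genes of the mouse T cell receptor, read in lung group 2 innate lymphoid cells (ILC2s), a type of lymphocyte that carries no antigen receptor on its surface. They were chosen by symbol: every gene of the bulk table that names a variable (V), diversity (D), joining (J) or constant (C) gene of the alpha, beta, gamma or delta locus and whose level was above 0 in at least 1 library. Of 55413 genes in that table, 270 symbols matched and 72 were above 0, namely 64 of 178 V genes and 8 of 8 C genes, with 0 of 4 D genes and 0 of 80 J genes. The other 198 matching genes were listed at 0 in every library, and the members nearest to that limit were Trav15d-2-dv6d-2 and Trav15n-2, each at 2.26 TPM (the authors' read shares corrected for transcript length) in a single library. The detection that defines the members is a description and was not tested.

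The study compared lung ILC2s of wild type C57BL/6 mice that were given IL-33, an alarmin that activates these cells, through the nose for 3 days together with dopamine or with its PBS vehicle. Bulk full-length libraries (Smart-Seq2) came from female mice, with 2000 sorted ILC2s in each, 3 labelled IL-33 plus PBS and 3 labelled IL-33 plus dopamine. Both groups therefore carry IL-33, and the bulk data hold no mice without it. A droplet pool of male ILC2s counted the 3′ ends of transcripts and held 8 antibody hashtags, assigned by the authors' cell table to PBS without IL-33 (hashtags 1 and 2), to IL-33 (3, 4 and 5) and to IL-33 plus dopamine (6, 7 and 8). Ages, the markers of the sort and the number of mice behind a hashtag are not given in the sources used here.

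A T cell receptor chain is assembled in the thymus, where the RAG recombinase joins a V, sometimes a D, and a J segment, and the joined exon is then spliced to a C gene. Alpha chains pair with beta chains and gamma chains with delta chains, and the pairs reach the cell surface only with the CD3 proteins. Transcripts of C genes and of unrearranged V genes can also be made without a productive receptor, and rearranged receptor genes have been described in ILC2s. Some T cells of the lung use nearly fixed segments: invariant natural killer T cells join Trav11 or Trav11d to Traj18, mucosal-associated invariant T cells join Trav1 to Traj33, and innate-like gamma delta T cells use Trgv4 or Trgv6, the latter often with Trdv4.

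Several V genes have close copies that can share reads, and the sequences of 2 such genes described below are shown with those of their copies, beside that of Trdv4. The lines give the last 120 or 121 bases of each V transcript on its own strand, from GENCODE transcripts on GRCm38 (mm10), and capitals mark the bases that differ from the copy in the next or previous line.
Trav11d (chr14:52824793-52824912): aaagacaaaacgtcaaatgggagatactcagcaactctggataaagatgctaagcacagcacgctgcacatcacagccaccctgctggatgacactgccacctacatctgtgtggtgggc
Trav11 (chr14:53519739-53519859): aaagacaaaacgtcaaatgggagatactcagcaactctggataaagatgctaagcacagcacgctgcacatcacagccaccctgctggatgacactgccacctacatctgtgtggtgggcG
Trbv13-2 (chr6:41121713-41121832): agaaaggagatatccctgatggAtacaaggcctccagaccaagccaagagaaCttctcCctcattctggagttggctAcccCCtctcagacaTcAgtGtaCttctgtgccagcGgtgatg
Trbv13-3 (chr6:41130466-41130585): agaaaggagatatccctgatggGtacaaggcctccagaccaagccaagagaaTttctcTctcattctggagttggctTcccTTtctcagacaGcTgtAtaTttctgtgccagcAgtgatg
Trdv4 (chr14:54075396-54075515): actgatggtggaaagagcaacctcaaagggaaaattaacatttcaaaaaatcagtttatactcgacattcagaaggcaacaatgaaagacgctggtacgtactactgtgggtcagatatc

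All 342 bases of Trav11d are found in Trav11, which has 1 base more at its 3′ end, so reads cannot separate them except at that base. Trav11 was nevertheless listed at 0 in all 6 libraries, and Trav11d was not. Trbv13-2 and Trbv13-3 share 308 of 340 bases, 11 of the differences lie in the stretch printed above, and both genes were listed at exactly 32.36 TPM in dopamine library 2 and at 10.82 TPM in dopamine library 3. Trdv4, the V gene found in every library, is printed for its level and is used below. Because copies can share reads, the levels of Trav11d, Trbv13-2 and Trbv13-3 are uncertain as levels of single genes, and the same holds for the other alpha V genes with a d or n in their names, several of which were listed at equal TPM with an identical copy.

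The absence of J and D genes has a measured side. Their annotated transcripts run from 46 to 66 bases for J genes and from 9 to 16 bases for D genes, against sequenced reads of 150 bases, while V transcripts run from 264 to 595 bases and C transcripts from 413 to 3865. Whether a read that crosses a joined segment could be assigned to so short a gene was not tested, and a listing at 0 therefore gives no information on the use of a J gene. In particular, Traj18 and Traj33, the joining segments of the invariant chains, were listed at 0 in all 6 libraries.

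With dopamine, the alpha, delta and first gamma constant genes stood above their PBS levels in every library in the deposited TPM, the beta constant genes were the most abundant members and differed little between groups, and none of the 7 constant genes tested passed the adjustment. TPM are corrected for length, so levels are set beside each other between genes. The annotation is not given, so the lengths used are unknown, and their part in differences between genes was not tested. The 11222 genes that reached 1 TPM in 3 or more libraries were fitted together by limma on log2(TPM + 1), with a threshold of 0.05 on the adjusted p. Log2 fold changes are dopamine minus PBS with 3 libraries a group. The median of all tested genes was itself 0.49 higher with dopamine on that scale, so each fitted change is followed by the change relative to that median. Every adjusted p below tests the fitted change, and the relative change has no p of its own. Of the 7 constant genes, 4 had an unadjusted p under 0.05, all higher, as did 19.5% of all tested genes in the higher and 4.62% in the lower direction. In sorted bulk samples, fewer cells of a type and less RNA per cell cannot be told apart.

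Trbc1 and Trbc2 encode the alternative constant regions of the beta chain. Trbc2 (chr6:41546730-41548352) had the highest level of all members, with 579.6, 683 and 769 TPM in the PBS libraries (given in the order 1, 2, 3 here and below) and 792, 719.6 and 905 TPM with dopamine. Trbc1 (chr6:41538218-41539881) stood at 386, 436 and 529 TPM with PBS and at 467, 517 and 603 TPM with dopamine. The groups overlapped for both genes. The fitted log2 fold changes were 0.25 ± 0.17 (SE) for Trbc2 (limma adjusted p = 0.367) and 0.24 ± 0.19 for Trbc1 (limma adjusted p = 0.444). Relative to the median of all genes they were -0.24 and -0.26, and both relative values turned to 0.24 with quantile normalization. The transcripts of the pair are identical over 96.1% of the shorter one, so the split between them is uncertain.

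Trac, the constant region of the alpha chain, was far below the beta constant genes in every library. It stood at 14.4, 10.5 and 39.2 TPM with PBS and at 77.5, 149 and 121 TPM with dopamine, so that every dopamine library was above every PBS library. PBS library 3 was the highest of its group. As a share of the summed Trbc1 and Trbc2 level, Trac made up 1.49%, 0.937% and 3.02% with PBS and 6.15%, 12.1% and 8.03% with dopamine. For Trac (chr14:54220521-54224206) the log2 fold change was 2.55 ± 0.47 (SE), with a limma adjusted p of 0.0832, and the relative change was 2.06. This p lay between 0.0163 and 0.242 over 14 alternatives, and Trac passed in 2 of them, without PBS library 1 (0.0322) and without PBS library 3 (0.0163).

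**Figure D1:**
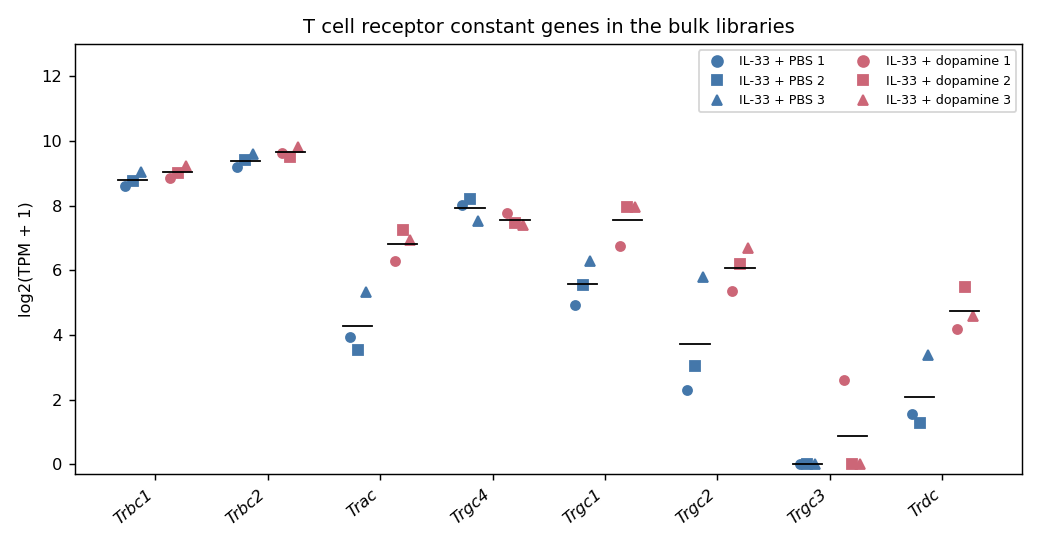
Level of the 8 constant genes, as log2(TPM + 1), in the 6 bulk libraries; blue symbols are IL-33 plus PBS, red symbols IL-33 plus dopamine, the symbol shape gives the library number and the black line the group mean of 3 libraries. Trbc1 and Trbc2 lie at about the same height in all libraries, and Trac, Trgc1 and Trdc have every dopamine library above every PBS library.

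Of the gamma constant genes, Trgc4 had the highest level with PBS and was the constant gene with the most negative relative change. It stood at 258, 292 and 184 TPM with PBS and at 219, 174 and 169.8 TPM with dopamine, and the groups overlapped because PBS library 3 was below dopamine library 1. Trgc4 had a log2 fold change of -0.37 ± 0.24 (SE) with a limma adjusted p of 0.350, and a relative change of -0.86. Trgc1 and Trgc2 lay in the other direction. Trgc1, which is spliced to the V genes Trgv4, Trgv5, Trgv6 and Trgv7, stood at 29.3, 45.4 and 77.7 TPM with PBS and at 106, 246 and 250.1 TPM with dopamine. All dopamine libraries were above all PBS libraries, with a log2 fold change of 1.97 ± 0.42 (SE), a limma adjusted p of 0.0832 and a relative change of 1.48. The p of Trgc1 ran from 0.0437 to 0.242 over 14 alternatives and fell under the threshold in 3 of them: 0.0440 without PBS library 1, 0.0437 without PBS library 3, and 0.0499 with the replicate number as a block.

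Trgc2 (chr13:19304649-19307551), which is spliced to Trgv2, stood at 3.97, 7.23 and 53.9 TPM with PBS and at 40.2, 72.4 and 101 TPM with dopamine. PBS library 3 overlapped with the dopamine group while PBS libraries 1 and 2 were far below it. The log2 fold change was 2.37 ± 0.77 (SE), with a limma adjusted p of 0.127 and a relative change of 1.87. Without PBS library 3 the relative change was 2.94 and the limma adjusted p of the fit 0.0230, in a range of 0.0230 to 0.333 over 14 alternatives. Trgc1 and Trgc2 transcripts are identical over 95.6% of the shorter one, which leaves their split uncertain. Trgc3 was listed in dopamine library 1 alone, at 5.16 TPM. The share of Trgc4 in the summed gamma constant level was 88.6%, 84.8% and 58.3% with PBS and 59.0%, 35.4% and 32.6% with dopamine, so PBS library 3 and dopamine library 1 had about equal shares.

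Trdc, the constant region of the delta chain, was the lowest of the constant genes that were listed in all 6 libraries. It stood at 1.95, 1.40 and 9.40 TPM with PBS and at 17.4, 43.8 and 22.9 TPM with dopamine, again without overlap and again with PBS library 3 nearest to the dopamine group. For Trdc (chr14:54142851-54148868) the log2 fold change was 2.69 ± 0.64 (SE), the relative change was 2.19, the limma adjusted p was 0.0832, and over 14 alternatives it ran from 0.0425, without PBS library 3, to 0.257. The direction of the relative change of Trac, Trdc, Trgc1 and Trgc2 was the same in each of these alternatives, scaling included, and so was that of Trgc4.

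V genes were the more variable members. With PBS, 6, 5 and 25 V genes were above 0, and with dopamine 15, 35 and 27, so PBS library 3 had more than dopamine library 1. Their summed level was 117, 103 and 356 TPM with PBS and 355, 1035 and 779 TPM with dopamine. PBS library 3 and dopamine library 1 were equal within 1 TPM, and the groups overlapped. The alpha V genes ran from 0 in PBS library 1 to 14 genes and 396 TPM in dopamine library 2, where the beta V genes numbered 15 and summed to 313 TPM.

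**Figure D2:**
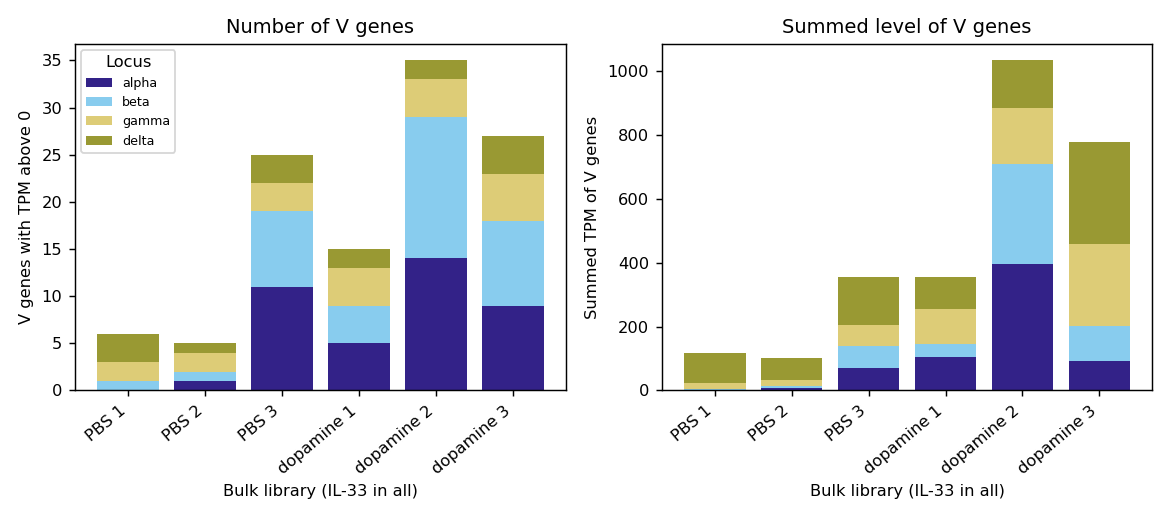
Number of V genes with TPM above 0 (left) and their summed TPM (right) in each bulk library, stacked by locus; all libraries carry IL-33. PBS libraries 1 and 2 have 6 and 5 V genes, most of their level being delta V genes, and PBS library 3 with 25 genes lies among the dopamine libraries.

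Most V genes were seen in a single library. Of all 72 members, 39 were above 0 in 1 library only, and 31 of these in 1 dopamine library. A total of 36 members were listed at 0 in all PBS libraries and 9 in all dopamine libraries, while among all 18526 genes above 0 anywhere the shares were 13.2% and 11.5%. Dopamine library 2 alone held Trav7-5 at 49.9 TPM, Trav13-4-dv7 at 39.3 TPM and Trbv29 at 29.0 TPM. Such single listings have no replicate, and they were left out of the fit with all 52 members that did not reach 1 TPM in 3 libraries.

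Only 8 members were listed in all 6 libraries, namely 7 constant genes and Trdv4. Groups did not overlap for 8 of 72 members (11.1%), all higher with dopamine: Trac, Trdc, Trgc1, Trgv4, Trgv6, Trav11d, Trbv13-2 and Trbv19. The same held for 15.5% of all 18526 genes above 0 in a library, and the lower direction held for 0 members and 4.37% of all genes; both denominators include genes listed in few libraries. All 8 were among the 20 tested members, against 23.5% of all tested genes, but the filter lets members in through the group in which they are high, so nothing is read from either count. With median-of-ratios scaling the counts were 6 members higher (8.33%, against 9.03% of all genes) and 1 lower; Trgc1 and Trgv4 then overlapped. Leaving out PBS library 3 gave 12 members (16.7%, against 18.6% of all genes), leaving out dopamine library 1 gave 13 (18.1%, against 22.4%), and leaving out PBS library 2 gave 8 (11.1%, against 16.6%). Genes at 1 TPM or more numbered 11384, 9822 and 10525 with PBS and 11502, 11529 and 11745 with dopamine. Every PBS library thus had fewer such genes than every dopamine library, and PBS library 2 had the fewest. At the limit that defines the members, a level above 0, the groups overlapped. Genes above 0 numbered 13756, 12582 and 13165 with PBS and 13378, 13007 and 13844 with dopamine. The part of these differences between libraries in the counts above was not tested.

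A total of 20 members reached the filter and were tested, 13 of them V genes. By limma, 2 of the 20 passed, against 0.0356% of all 11222 genes. Those 4 genes were all higher with dopamine in the deposited TPM, but the balance of calls over all genes changed with the setting: scaling by median ratios called 2 genes higher and 2 lower, quantile normalization 10 and 11, and a block for the replicate number 9 and 6. The members that passed were Trav11d and Trbv13-2, the alpha and beta V genes of many invariant natural killer T cell receptors. Both were listed at 0 in all PBS libraries and reached the filter through the dopamine libraries alone, so they had to differ; no fold change is given against a group listed at 0. Over 11 alternatives each, the limma adjusted p ran from 0.0144 to 0.223 for both, and Trav11d passed in 6 of them and Trbv13-2 in 5. Without PBS library 2 neither passed, each with an adjusted p of 0.109, and without any 1 dopamine library neither reached the filter.

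The other genes of the invariant natural killer T cell list did not follow in all dopamine libraries. Trbv13-3 stood at 20.6 TPM in PBS library 3 and at 0, 32.4 and 10.8 TPM with dopamine, and Trbv1 at 8.06 TPM in PBS library 3 and at 0, 18.4 and 24.6 TPM with dopamine. Both were at 0 in PBS libraries 1 and 2, both groups overlapped, and neither gene passed. Trbv13-1 was listed at 5.59 TPM in PBS library 3 and at 22.9 TPM in dopamine library 3. The summed level of the 8 segments was 0, 0 and 34.2 TPM with PBS and ran from 32.2 to 192 TPM with dopamine, so PBS library 3 was again inside the dopamine range.

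Trav1, the V gene of mucosal-associated invariant T cells, was listed in PBS library 3 at 15.1 TPM and in dopamine library 2 at 53.7 TPM, and at 0 in the other 4 libraries. Trbv19, a beta V gene that these cells and many others use, stood at 4.24 TPM in PBS library 3 and at 8.51, 18.4 and 9.21 TPM with dopamine. It was at 0 in PBS libraries 1 and 2, without overlap. Its log2 fold change was 2.83 ± 0.72 (SE), its relative change 2.34 and its limma adjusted p 0.0960, which ran from 0.0406, without PBS library 3, to 0.259 over 14 alternatives. The size of the relative change depended on the pseudocount, with 1.14 at a pseudocount of 5 and 4.43 at 0.1.

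**Figure D3:**
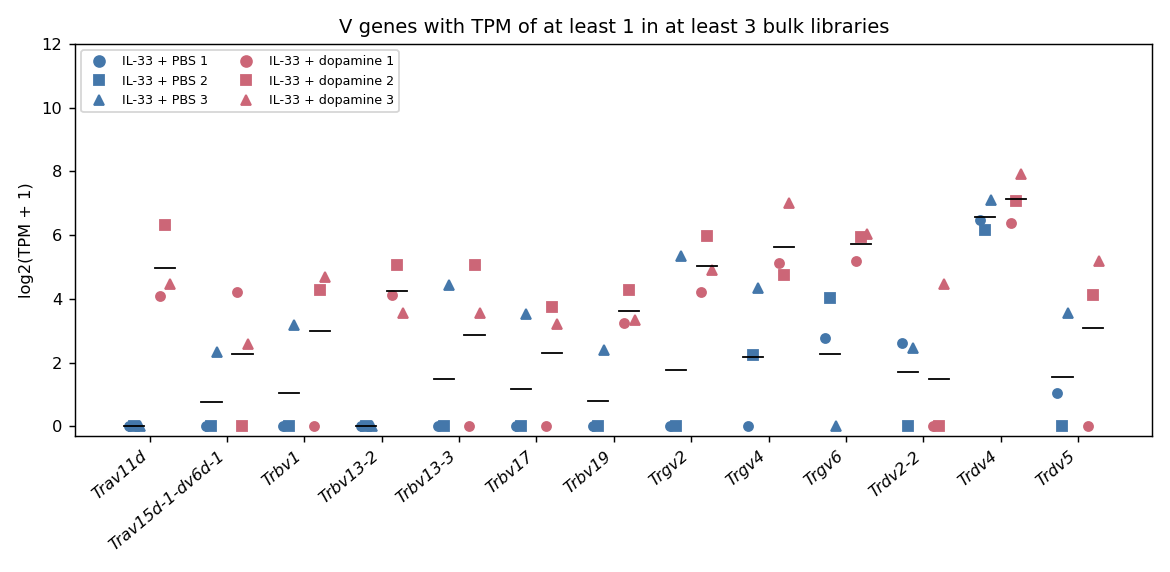
Level of the 13 tested V genes, as log2(TPM + 1), in the 6 bulk libraries; blue symbols are IL-33 plus PBS, red symbols IL-33 plus dopamine, the symbol shape gives the library number and the black line the mean of 3 libraries. Many PBS symbols lie at 0, most of them of PBS libraries 1 and 2, and Trdv4 is high in both groups.

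Trgv6, the gamma V gene of innate-like gamma delta T cells that make IL-17, stood at 5.88, 15.2 and 0 TPM with PBS and at 35.7, 60.5 and 64.7 TPM with dopamine. Here PBS library 3 was the lowest of its group. The log2 fold change was 3.46 ± 0.85 (SE), the relative change 2.97, and the limma adjusted p was 0.0898, in a range of 0.0485, without PBS library 1, to 0.246. Trgv4 stood at 0, 3.70 and 19.2 TPM with PBS and at 33.6, 26.2 and 128 TPM with dopamine, without overlap, with a log2 fold change of 3.44 ± 0.98 (SE), a limma adjusted p of 0.104 and a relative change of 2.95. Without PBS library 3 its limma adjusted p was 0.0483, the lowest of 14 alternatives, which reached up to 0.269. With pseudocounts of 5 and 0.1 the relative changes were 2.18 and 4.04 for Trgv6 and 2.13 and 4.05 for Trgv4.

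For Trgv2 as for its constant gene Trgc2, PBS library 3 was the highest of its group and inside the dopamine range. Trgv2 was at 0 in PBS libraries 1 and 2, at 39.3 TPM in PBS library 3 and at 17.6, 62.4 and 29.2 TPM with dopamine. Its log2 fold change was 3.26 ± 1.24 (SE) with a limma adjusted p of 0.160 and a relative change of 2.77. Without PBS library 3 the relative change was 4.57 and the limma adjusted p of the fit 0.0163, in a range of 0.0163 to 0.426 over 14 alternatives. With pseudocounts of 5 and 0.1 the relative change of Trgv2 was 1.56 and 4.85. Trgv1, the V gene that is spliced to Trgc4, was listed in dopamine libraries 1 and 3 only, at 24.2 and 16.4 TPM. Trgc4 was thus listed at 258, 292 and 184 TPM in PBS libraries in which Trgv1 was at 0. Of the remaining gamma V genes, Trgv5 was listed in PBS library 1 (12.7 TPM) and dopamine library 2 (26.4 TPM), Trgv3 in PBS library 3 and Trgv7 in dopamine library 3.

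Trdv4 had the highest level of all V genes and was the leading delta V gene in each of the 6 libraries. It stood at 88.9, 70.6 and 136 TPM with PBS and at 82.9, 134 and 242 TPM with dopamine, and the groups overlapped. Its level was far above that of Trdc in every library, for example 88.9 against 1.95 TPM in PBS library 1. The log2 fold change of Trdv4 (chr14:54074905-54075515) was 0.55 ± 0.39 (SE), with a limma adjusted p of 0.394. Its relative change was 0.05, and the sign of that turned in 4 of 14 alternatives. Trdv2-2 and Trav15d-1-dv6d-1 were each listed in 3 libraries, with overlap between groups, and neither passed.

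Trdv5 lies on the opposite strand of Trdc, and 207 of the 438 bases of its transcript fall within Trdc exons. Its values, 1.08, 0 and 10.8 TPM with PBS and 0, 16.3 and 35.6 TPM with dopamine, are therefore uncertain, since Smart-Seq2 does not mark the strand of the transcript. Trbv17, the remaining tested V gene, was listed in PBS library 3 and dopamine libraries 2 and 3 at 8.20 to 12.3 TPM and overlapped.

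The genes that carry the receptor to the surface and signal from it were read beside the members. Of 30 genes of the receptor complex and its signalling, 28 were tested, 0 passed by limma, 19 had an unadjusted p under 0.05 in the higher direction, against the 19.5% of all tested genes given above, and 13 were higher without overlap against 23.5% of all tested genes; 0 were lower without overlap, against 6.57%. Their median relative log2 fold change was 0.58, where that of all tested genes is 0 by construction. Cd3e, a CD3 chain needed by every surface receptor, stood at 4.33, 6.68 and 43.6 TPM with PBS and at 44.8, 170.4 and 105 TPM with dopamine, so PBS library 3 and dopamine library 1 differed by about 1 TPM. Cd3g was less uneven, at 161, 208 and 233 TPM with PBS and at 265, 389.6 and 247.5 TPM with dopamine, with a log2 fold change of 0.07 relative to the median of all genes. Of 13 recombination genes, 8 were tested and 0 passed, and Rag1, Rag2 and Ptcra, which act in developing thymocytes, were listed at 0 in every library.

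Marker lists of T cells and of other cells were read in the same libraries, and their part in these values was not tested; the 23.5% of all tested genes that were higher without overlap stands beside each of their counts. Of 16 T cell markers, 14 were tested, 0 passed and 3 were higher without overlap, no more than that share. At an unadjusted limma p under 0.05, however, 9 of the 14 were higher and 0 lower. The shares of all tested genes at that limit, given above, were 19.5% and 4.62%. The summed level of the T cell markers ran from 565 to 867 TPM with PBS and from 952 to 1620.0 TPM with dopamine. The co-receptor genes were near 0: Cd4 stood at 28.7 TPM in dopamine library 2 and at or under 0.89 TPM elsewhere, and Cd8a was listed in dopamine library 2 alone, at 0.70 TPM. Of 10 gamma delta T cell markers, 9 were tested and 8 were higher without overlap, with sums of 169.8 to 322 TPM against 425 to 828 TPM. Most of the PBS sums came from Tmem176a, at 119.8, 153 and 212 TPM with PBS and at 223, 313 and 302 TPM with dopamine. Cd163l1, a scavenger receptor of IL-17-producing gamma delta T cells, stood at 5.64, 3.40 and 16.5 TPM with PBS and at 68.3, 270.2 and 210.5 TPM with dopamine (limma adjusted p = 0.0517).

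Markers of natural killer cells and ILC1s summed to 90.4 to 273 TPM with PBS and 372 to 619 TPM with dopamine, and 6 of 8 tested were higher without overlap. Most of each of these sums came from Gzmb, at 98.9, 81.5 and 224 TPM with PBS and 418, 334 and 266 TPM with dopamine. Of 9 invariant natural killer T cell markers, all tested, 8 were higher without overlap, with sums of 570.0 to 945 TPM and 1160.5 to 1269.8 TPM. Most of each sum came from Cxcr6, Cd44 and Il2rb, for example 385, 286 and 267 TPM in PBS library 1. Zbtb16 stood at 0.53, 0.51 and 0.81 TPM with PBS and at 2.74, 17.3 and 8.69 TPM with dopamine. Klrb1c and Tbx21 of this list are also among the natural killer cell and ILC1 markers. For B cell markers, 0 of 5 tested were higher without overlap, and 2 had an unadjusted limma p under 0.05 in the higher direction. They summed to 798, 87.2 and 5005 TPM with PBS and to 119.9, 1786 and 281 TPM with dopamine. Most of the sums in PBS libraries 1 and 3 and dopamine library 2 came from Igkc, at 744, 4860 and 1498 TPM. The sums were highest in PBS library 3 and dopamine library 2, the libraries with the most V genes of their groups. The order differed elsewhere: PBS library 1 had 6 V genes above 0 with a sum of 798 TPM, and dopamine library 3 had 27 with 281 TPM. Macrophage markers were highest in dopamine library 2, at 407 TPM, with Lyz2 alone at 389.8 TPM. No marker of these lists passed by limma. ILC2 markers, such as Areg and Ccr8, summed to between 3875 and 5679 TPM with PBS and between 3399 and 5204 TPM with dopamine, so the labelled cell type was present in each library. All 14 were tested, 4 were higher without overlap and 1, Arg1, was lower without overlap, against 6.57% of all tested genes in the lower direction. Their median relative log2 fold change was -0.53.

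The droplet data show which cells carry these transcripts. The table held 9076 cells from 1 library with 0 repeated barcodes, and 15083 genes, of which 17 were T cell receptor genes; the gamma genes appear there under names such as Tcrg-C1. Total UMIs (counted molecules) per hashtag ran from 1397576 to 9268932, and the median cell held between 4201 and 5692. Gata3, the transcription factor of the lineage, had a UMI in 89.7% of cells, and the receptor for IL-33, Il1rl1, in 92.2%. The cell table names no cell type that should lack the members, so the share that free RNA alone would give for them was not measured. Lyz2, a myeloid transcript, had a UMI in 0.253% of cells and up to 8 UMIs in a cell, and Igkc, a B cell transcript, in 0.0661%; free RNA of transcripts that these cells themselves make can be higher.

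Beta constant transcripts were found in nearly every cell. Trbc2 had a UMI in 79.6% of cells and Trbc1 in 73.8%, and 8502 cells (93.7%) had a UMI of at least 1 of them. When each cell was thinned to 2000 UMIs, which left out 4 shallower cells, the shares were 58.6% and 49.7%. Gamma constant transcripts were found in 3393 cells (37.4%): Tcrg-C4 in 27.4% of cells (13.4% thinned), Tcrg-C1 in 14.7% (7.35% thinned) and Tcrg-C2 in 0.485%. The V gene Trdv4 had a UMI in 35.0% of cells (17.1% thinned), while Trdc had one in 2.01% (0.750% thinned). Only 373 cells (4.11%) had no constant gene UMI.

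Trac was rare. It had a UMI in 343 of 9076 cells, which is 3.78% with an exact (Clopper-Pearson) 95% interval of 3.40% to 4.19% for counting error only, and in 1.43% when thinned. There were at most 3 Trac UMIs in a cell, and 326 of these cells also had a beta constant UMI, as did nearly all cells. Cd3e had a UMI in 139 cells (1.53%), 2 of which were among the 343 Trac cells (0.583% of them, exact 95% interval 0.0707% to 2.09%). Cd4 and Cd8b1 had a UMI in 0.0661% and 0.0551% of cells, at the level of Igkc. Gamma and delta constant UMIs were found together in 78 cells, 8 of which also had Cd3e. A gamma constant UMI was found in 37.4% of all cells, and whether the 78 cells exceed that share was not tested. Cells with Trdc numbered 182, and 5.49% of them had a Cd3e UMI (exact 95% interval 2.67% to 9.87%). Their median depth was 5212 UMIs, against 5773 in the Trac cells. Each of these intervals pools the cells of all hashtags and leaves out the spread between hashtags. Per hashtag, the share of cells with Trac ran from 2.01% to 5.26% and that with Cd3e from 0.322% to 2.66%. The difference between Trac and Trdc cells was not tested.

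In the male mice the dopamine comparison found no member past the threshold. By edgeR's quasi-likelihood test on UMIs summed per hashtag, 0 of 10 tested members were called, where 0% of 10559 tested genes were called higher and 0.0284% lower, and DESeq2 called 0 members as well. At an unadjusted p under 0.05 there were 1 higher and 2 lower members, against 4.81% and 4.66% of tested genes. Levels are given as CPM, the UMIs of a gene per 1000000 UMIs of its hashtag, and fold changes as log2 of IL-33 plus dopamine over IL-33.

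Trbc1 stood at 385, 347 and 433 CPM in hashtags 3, 4 and 5 with IL-33 and at 466, 487 and 474 CPM in hashtags 6, 7 and 8 with added dopamine. The dopamine hashtags were all above the IL-33 hashtags, as for 7.81% of tested genes, and the log2 fold change was 0.29 ± 0.09 (SE) with an edgeR adjusted p of 0.397. Trbc2 stood at 562, 496 and 642 CPM and at 566, 522 and 526 CPM, and overlapped. Tcrg-C4 was lower without overlap, as were 6.93% of tested genes, at 101, 93.5 and 99.3 CPM with IL-33 and at 81.1, 72.5 and 76.4 CPM with dopamine. Its log2 fold change was -0.35 ± 0.08 (SE), and the edgeR adjusted p was 0.230, in a range of 0.155 to 0.861 over 11 alternatives.

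Tcrg-C1 differed widely between the dopamine hashtags. It stood at 48.0, 47.4 and 45.8 CPM with IL-33 and at 46.7, 20.8 and 66.2 CPM with dopamine, so hashtag 7 was the lowest and hashtag 8 the highest of all 8. In hashtag 7 a UMI of the gene was found in 7.69% of cells, against 14.5% and 18.0% in hashtags 6 and 8 (3.17%, 7.67% and 9.77% thinned). The log2 fold change was -0.08 ± 0.28 (SE) with an edgeR adjusted p of 0.950. It turned to 0.27 without hashtag 7 and was -0.51 without hashtag 8.

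Trac stood at 8.42, 7.89 and 6.86 CPM with IL-33 and at 7.21, 9.89 and 7.10 CPM with dopamine, and the log2 fold change was 0.07 ± 0.18 (SE, edgeR adjusted p = 0.931). Trdc stood at 3.24, 4.29 and 5.0 CPM and at 5.40, 3.06 and 3.09 CPM, with a log2 fold change of -0.11 ± 0.28 (SE, edgeR adjusted p = 0.925). Trdv4 stood at 93.5, 95.7 and 92.1 CPM and at 90.1, 97.9 and 112 CPM, with a log2 fold change of 0.10 ± 0.10 (SE, edgeR adjusted p = 0.787). All 3 genes overlapped between the groups. The bulk libraries of female mice had Trac and Trdc higher with dopamine in every library; the data sets differ in sex, in assay and in the cells kept, and the difference between them was not tested.

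**Figure D4:**
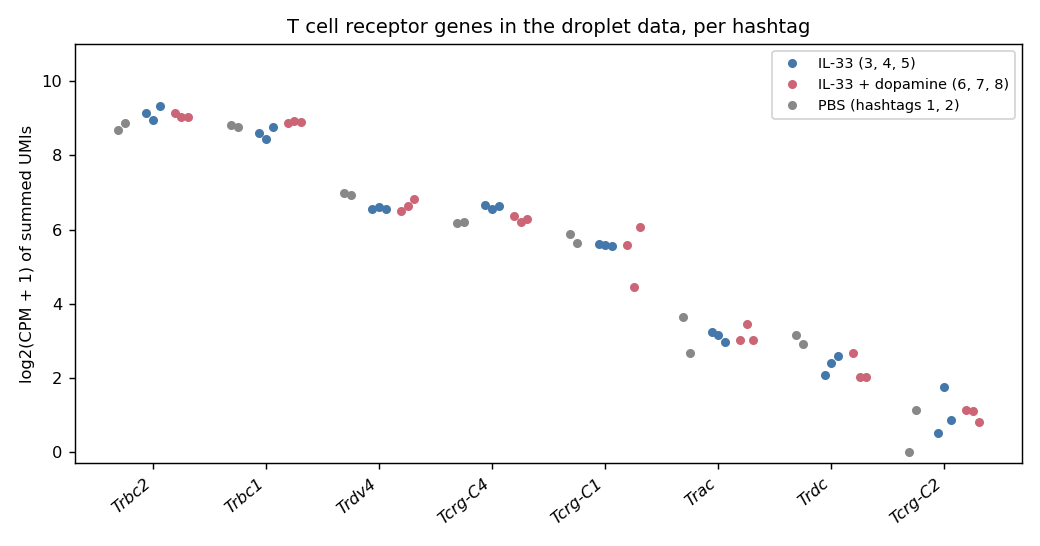
Level of 8 T cell receptor genes, as log2(CPM + 1) of UMIs summed over the cells of a hashtag, in the droplet pool; grey dots are PBS, blue dots IL-33 and red dots IL-33 plus dopamine. The groups lie close together for each gene, and the lowest red dot of Tcrg-C1 is hashtag 7, at 20.8 CPM.

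Of the rare V genes with at least 50 UMIs, Trgv2 was lower with dopamine without overlap, at 1.05, 1.16 and 0.926 CPM against 1.94, 2.06 and 1.86 CPM, with a log2 fold change of -0.88 ± 0.33 (SE) and an edgeR adjusted p of 0.467. Tcrg-V1 had 146 UMIs in all, Trgv2 74, Tcrg-V5 65 and Tcrg-V6 61, and none of these 4 passed where it was tested. Cd3g, the CD3 chain found most widely, had a UMI in 19.0% of cells and passed in the lower direction, at 113, 93.7 and 103 CPM with IL-33 and at 49.8, 53.0 and 44.9 CPM with dopamine (log2 fold change -1.07 ± 0.10 SE, edgeR adjusted p = 0.00140). Of the 24 tested genes of the receptor complex and signalling list, Cd3g was the only one that passed. Cd3e and Cd3d were also lower without overlap but did not pass: Cd3e stood at 6.80, 8.06 and 4.53 CPM with IL-33 and at 4.35, 2.91 and 2.16 CPM with dopamine (log2 fold change -1.01 ± 0.29 SE, edgeR adjusted p = 0.388). Cd3d stood at 3.24, 3.26 and 3.37 CPM and at 2.7, 1.75 and 2.78 CPM in the same order. In the bulk libraries, Cd3g and Cd3e were instead higher with dopamine without overlap in the deposited TPM. Their relative log2 fold changes there were 0.07 and 2.45, and that of Trgv2 was 2.77 with overlapping groups. These differences between the data sets were not tested.

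IL-33 itself was compared with PBS over hashtags 3, 4 and 5 against 1 and 2, and this comparison shares its IL-33 hashtags with the one above. None of 10 tested members passed by edgeR, where 0.352% of 10506 tested genes were called in each direction. At an unadjusted p under 0.05 there were 3 higher and 3 lower members, against 6.56% and 6.87% of tested genes, and DESeq2 called Trdv4. Trdv4 came nearest, at 125 and 121 CPM with PBS against 93.5, 95.7 and 92.1 CPM with IL-33. All IL-33 hashtags were lower, as for 13.6% of tested genes, with a log2 fold change of -0.42 ± 0.09 (SE) and an edgeR adjusted p of 0.0532. It passed in 2 of 10 alternatives, with DESeq2 (0.0340) and without a filter on low counts (0.0176), in a range up to 0.349.

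Tcrg-C4 stood at 71.6 and 72.4 CPM with PBS and at 101, 93.5 and 99.3 CPM with IL-33, higher without overlap as were 20.9% of tested genes. Its log2 fold change was 0.41 ± 0.10 (SE) with an edgeR adjusted p of 0.0910, which ran from 0.0180, without a filter, to 0.371 over 10 alternatives. Trbc2 was at 411 and 463 CPM with PBS and at 562, 496 and 642 CPM with IL-33 (log2 fold change 0.33 ± 0.10 SE, edgeR adjusted p = 0.150), and it passed in 2 of 10 alternatives, with 0.00428 without a filter and 0.0417 without hashtag 4, in a range up to 0.534. Trbc1 lay in the other direction, at 454 and 435 CPM against 385, 347 and 433 CPM (log2 fold change -0.23 ± 0.09 SE, edgeR adjusted p = 0.299). Trac stood at 11.4 and 5.36 CPM with PBS, further apart than its 3 IL-33 values.

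The authors sorted the cells into 6 clusters, numbered 0 to 5, of 2289, 1934, 1671, 1198, 1071 and 913 cells. Each constant gene and Trdv4 had UMIs in all 6 clusters, while 5 V genes with 14 or fewer UMIs in the whole table, such as Trbv29, were missing from 1 or more. Clusters were built from the expression of the same cells, so their differences are a description and were not tested. Levels are given as the median over the 8 hashtags, which gives each hashtag the same weight. Trbc1 had its lowest median in cluster 1 (360.5 CPM) and its highest in cluster 0 (502 CPM), and Trbc2 lay between 490.5 CPM in cluster 2 and 575 CPM in cluster 5.

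Tcrg-C1 was less even. Its medians in clusters 2 and 4 were 71.8 and 73.2 CPM, with hashtags from 41.5 to 109.8 CPM and from 51.3 to 123 CPM, so these clusters did not differ beyond the spread of hashtags. They were 22.6 CPM in cluster 1 and 15.8 CPM in cluster 5, where only hashtag 1 reached 77.4 CPM, from 4 UMIs. Tcrg-C4 had its highest median in cluster 4, at 136 CPM, and its next highest in cluster 5, at 107 CPM. Trdv4 had its highest median in cluster 2, at 140.3 CPM.

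Trac had its highest median in cluster 3, at 13.2 CPM, and its lowest in cluster 0, at 3.91 CPM. With each cell thinned to 2000 UMIs and hashtags pooled, a Trac UMI was found in 2.84% of cluster 3 cells, 2.19% of cluster 5 cells and 0.875% of cluster 0 cells. Cluster 1 had the lowest thinned share, 0.828%. The median cell of clusters 3, 5 and 0 held 5480.5, 8142 and 4082 UMIs, and the part of depth in these levels was not tested. Cluster 3 also had the highest Gata3 level of the pooled hashtags, at 1661 CPM, and a Cd3e UMI in 0.918% of its cells, against 3.05% in cluster 1. Trdc had medians of 3.8 to 4.87 CPM in clusters 0 to 4 and of 1.20 CPM in cluster 5, from 23 UMIs.

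**Figure D5:**
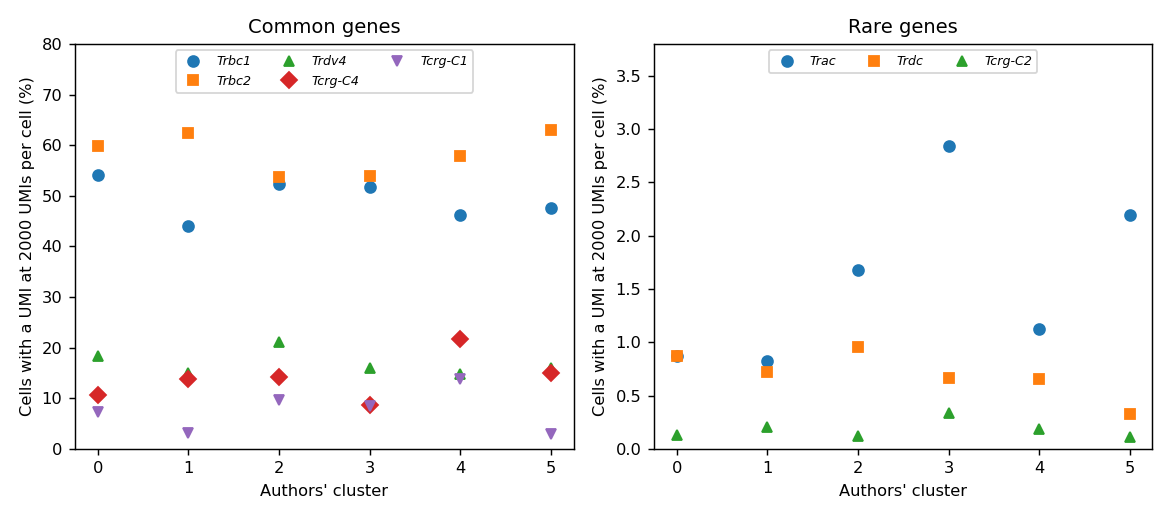
Share of cells with a UMI of each gene in the authors' clusters 0 to 5, in percent of all cells of the cluster with hashtags pooled, after each cell was thinned to 2000 UMIs; common genes are on the left and rare genes on the right, on different axes. Tcrg-C4 is highest in cluster 4 and Trac in cluster 3, and Tcrg-C1 is lowest in clusters 1 and 5.

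Within clusters, the dopamine hashtags were set against the IL-33 hashtags by their ranges, with no test. Of the 102 pairs of a T cell receptor gene and a cluster, 3 were higher and 5 lower with dopamine without overlap, while over all genes counted, 4.79% of such pairs were higher and 4.11% lower. Trbc1 was higher in cluster 1, at 411 to 451 CPM against 269.8 to 358 CPM. Tcrg-C4 was lower in cluster 2, at 62.2 to 77.7 CPM against 86.6 to 98.8 CPM, and Trdc in cluster 4, at 2.34 to 3.19 CPM against 3.38 to 6.74 CPM from 26 UMIs in all. The remaining 5 pairs rest on 5 to 30 UMIs each: Trgv2 was lower in clusters 0 and 1, Tcrg-V1 lower in cluster 4, Tcrg-V5 higher in cluster 3 and Trbv29 higher in cluster 0. Trac, Trbc2, Tcrg-C1 and Trdv4 overlapped in all 6 clusters.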

How the data were processed

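The bulk TPM were deposited by the authors for 55413 genes, each column summing to 1000000; RSEM 1.3.3, STAR 2.7.5c and cutadapt 2.10 and the build mm10 are listed per the submitters' processing notes, with no settings or annotation. They carry no read counts, so depth is unknown. The droplet UMI counts were deposited for 9076 cells that the authors had filtered, assigned to hashtags and clustered (Cell Ranger 6.1.1 and Seurat 4.0.2, per the submitters' processing notes); the sources used here give no doublet treatment, and no doublet caller was applied. Counts were summed per hashtag. Hashtag p-values measure the spread between hashtags, since the labels do not say how many mice each held.

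The members, the lists and the rule for naming genes (every constant gene, every tested V gene, the 15 V genes of highest mean level, V genes with 50 or more UMIs and the listed invariant segments) were chosen with earlier results of these data known. Member symbols were looked up in GENCODE M21 (GRCm38), directly or through RefSeq synonyms, and all 72 members matched. The bulk fit used limma 3.58.1 and a pseudocount of 1, with a trend of the prior variance on expression; summed counts were tested with edgeR 4.0.16 (TMM, filterByExpr, quasi-likelihood), in R 4.3.3, with Benjamini-Hochberg adjustment over all genes tested. DESeq2 1.42.0 was an alternative. The fits were run on simulated data. Their bulk noise was set below the spread within the groups of these data, and their UMI counts had 1 fixed spread. Detection at the spread of these data was therefore not measured. Alternatives were other pseudocounts, filters, scalings, prior, block, cell limits and leaving out each library or hashtag.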

Additional observations from a re-analysis of the deposited data

How the results depend on the processing

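Of 11222 genes, 4 passed in the bulk comparison. The count was 2 with a pseudocount of 5 and 2 with a mean TPM of at least 5, 0 without a filter and 0 without a trend (in each of these, Trav11d and Trbv13-2 did not pass), 21 with quantile normalization, and ran from 0 to 1536 when 1 library was left out (0 without PBS library 2, 90 without PBS library 3, 1 without dopamine library 2, 1536 without PBS library 1). With the replicate block it was 15; libraries of equal number had correlations of 0.0186, -0.071 and -0.0018 after removal of the group means, so neither labels nor values pair them, and the block added Trgc1 to the calls. In the droplet comparison of dopamine, 3 genes passed, 26 with DESeq2, 9 between the 10th and 90th percentile of UMIs, and 1 to 16 without 1 hashtag. For IL-33 against PBS, 74 passed, 119 with DESeq2, 322 without a filter, 34 within those percentiles, 0 with all hashtags in 1 fit, and 5 to 124 without 1 hashtag. The count of members without overlap ran from 8 to 13 without 1 library, while 16.6% to 29.4% of all genes did not overlap in that direction, an alternative chosen after seeing the data. Adjusted p-values belong to the fitted changes, not to the relative ones. Relative bulk changes of Trbc1 and Trbc2 both turned to 0.24 with quantile normalization, and that of Trdv4 turned with a pseudocount of 0.1 (-0.04) and median-of-ratios scaling (-0.05). Without 1 library, the relative change ran from -0.01 to 2.32 for Trbv13-3 and from -0.13 to 1.78 for Trbv17 (turned without PBS library 1), from -1.37 to 0.05 for Trdv2-2 (turned without dopamine libraries 1 or 2, 0.02 and 0.05), and from -0.32 to 0.40 for Trdv4 (turned without PBS library 1, -0.17, or dopamine library 3). Without 1 hashtag, the droplet change with dopamine ran from -0.37 to 0.11 for Tcrg-V5, -0.51 to 0.27 for Tcrg-C1 (both turned without hashtag 7), -0.02 to 0.19 for Trdv4 (turned without hashtag 8), -0.16 to 0.03 for Trbc2 (turned without hashtag 5), and -0.41 to 0.06 for Trdc and -0.11 to 0.16 for Trac (both turned without hashtags 5 or 7). For IL-33 against PBS it ran from -0.62 to 0.67 for Tcrg-V6 (turned without hashtag 2) and from -0.60 to 0.50 for Trac (turned without hashtags 2 or 3), which was -0.16 within the percentiles. None of these genes passed, under any alternative tried, in the comparison in which its sign turned. The cause of these changes was not tested. Depth limits Trac, Trdc and the V genes in the droplet data, which rest on 379, 208 and 146 or fewer UMIs, Trdv4 excepted.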
